A study of Mus musculus with 6 samples.

Results

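The G1 cyclins, the kinases they activate and the inhibitors that hold these kinases back were followed in CD27SP NK cells from mice with intact or floxed *Myc*. The set holds 10 genes of the 25690 gene symbols in the tables: *Ccnd1*, *Ccnd2*, *Ccnd3*, *Ccne1*, *Ccne2*, *Cdk2*, *Cdk4*, *Cdk6*, *Cdkn1b* and *Cdkn2c*. They were chosen as a list of names, with earlier results of these data known, and all 10 had enough counts to be tested. RNA was sequenced from NK1.1+CD27+CD11b- cells negative for CD3, sorted from mouse BM, with 3 libraries from *Ncr1cre Myc* wt/wt and 3 from *Ncr1cre Myc* fl/fl mice on a C57BL/6 background. The replicate numbers are 1, 2 and 4 in each genotype. Mice of both genotypes carry Cre in the *Ncr1* locus. In fl/fl mice *Myc* is therefore deleted only in cells that have switched on NKp46, and the sort gate did not use NKp46. The study used mice matched for age and sex. The labels give neither the age behind each library nor whether a library comes from a pool, so the p-values measure the spread between these libraries.

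Entry into the cell cycle depends on the stepwise phosphorylation of RB. D-type cyclins bind CDK4 or CDK6 in response to growth signals and start to phosphorylate RB family proteins, which releases E2F factors. E2F factors then raise the E-type cyclins, which bind CDK2 and complete the step into S phase. Cdkn2c (p18INK4c) belongs to the INK4 family, which binds CDK4 and CDK6, and Cdkn1b (p27Kip1) inhibits cyclin E-CDK2. In many cell types MYC raises cyclin D2 and CDK4 and opposes p27Kip1, and lymphocytes use mainly cyclins D2 and D3.

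The libraries held between 8101219 and 64962491 estimated counts. *Ncr1cre Myc* wt/wt library 1 is the shallowest, with the next at 54550907. *Myc* itself lay between 164.3 and 200.5 CPM, counts scaled to the normalized library size, in *Ncr1cre Myc* wt/wt and between 61.5 and 76.5 CPM in *Ncr1cre Myc* fl/fl libraries, a log2 fold change of −1.44 (SE, standard error, 0.15, adjusted p = 0.00189, edgeR, and 0.0105 without replicate 1). The 12 NK cell markers summed to between 15274 and 15872 CPM in wt/wt and between 17421 and 18332 CPM in fl/fl libraries, and none of them passed the calling threshold in edgeR, DESeq2 or limma-trend, while 1 had a lower and 3 a higher level at p below 0.05 before adjustment, against 10.2% and 12.4% of all genes. No NK cell marker was at 0 in all libraries of a genotype. In bulk RNA, fewer cells of a type and less RNA per cell cannot be told apart.

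The 250 bases before the start of *Cdk4* and *Cdk6* are shown because the levels of these kinases did not overlap between the genotypes and lay in opposite directions, and because CACGTG, the E-box bound by MYC with MAX, stands in both. The E-boxes are in capitals and each line runs 5′ to 3′ on the plus strand of GRCm38.p6 (RefSeq), from chr10:127063285-127063534 for *Cdk4* and from chr5:3343643-3343892 for *Cdk6*.
Cdk4: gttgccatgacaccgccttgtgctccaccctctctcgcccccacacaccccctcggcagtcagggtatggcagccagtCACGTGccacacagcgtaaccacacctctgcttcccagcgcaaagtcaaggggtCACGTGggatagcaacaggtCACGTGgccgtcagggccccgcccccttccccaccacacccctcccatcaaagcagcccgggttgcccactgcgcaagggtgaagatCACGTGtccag
Cdk6: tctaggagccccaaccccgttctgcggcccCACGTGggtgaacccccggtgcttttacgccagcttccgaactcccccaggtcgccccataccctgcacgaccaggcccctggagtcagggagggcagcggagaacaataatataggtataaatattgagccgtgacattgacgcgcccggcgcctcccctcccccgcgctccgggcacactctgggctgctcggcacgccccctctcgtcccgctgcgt
*Cdk4* holds 4 E-boxes, which begin at −172, −118, −98 and −11 from the start, and *Cdk6* holds 1, which begins at −220. CACGTG reads the same on both strands. Windows of 300 bases, with 50 of them after the start, were available for 7 of the 10 genes, and not for *Ccnd1*, *Ccnd2* and *Ccne2*. Of all 32851 such windows, 7.15% held CACGTG and 0.0244% (8 windows) held it at least 4 times. A second *Cdkn2c* window held 1 E-box after its start. *Ccnd3*, *Ccne1*, *Cdk2* and *Cdkn1b* had none in these windows. These matches describe letters and do not show binding.

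Levels are compared between genes on the TPM scale, which is per transcript length and summed over all transcripts of a gene. Short transcripts weigh more on it. In wt/wt libraries 1, 2 and 4 the 4-exon Ccnd2-206 was at 655.0, 444.9 and 477.6 TPM and the 5-exon Ccnd2-201 at 66.1, 86.5 and 93.1 TPM. The 2-exon Cdk4-209, which retains an intron, was at 217.4, 160.1 and 164.3 TPM and the 8-exon Cdk4-201 at 15.7, 66.3 and 51.2 TPM. The order is therefore not one of full-length mRNA. In *Ncr1cre Myc* wt/wt cells the order was *Ccnd2* (958 ± 124.3 TPM, SD, n = 3), *Ccnd3* (678 ± 228), *Cdk4* (565 ± 35.6), *Cdk2* (34.9 ± 5.72), *Ccne1* (32.8 ± 4.49), *Cdk6* (27.4 ± 9.80), *Ccne2* (22.2 ± 1.21), *Cdkn2c* (21.9 ± 8.002), *Cdkn1b* (8.10 ± 1.22) and *Ccnd1* (0.389 ± 0.124). Neighbours in this order whose libraries did not overlap were *Cdk4* and *Cdk2*, *Cdkn2c* and *Cdkn1b*, and *Cdkn1b* and *Ccnd1*, and all other neighbours overlapped. In *Ncr1cre Myc* fl/fl cells *Cdk6* stood at 51.3 ± 5.69 TPM (SD, n = 3), above every library of *Cdkn2c* (25.2 ± 6.62) and of *Cdk2* (24.0 ± 1.10). *Ccnd2* (982 ± 144 TPM), *Ccnd3* (746 ± 60.4) and *Cdk4* (414 ± 47.6) led the order in these cells as well, with no overlap between them. *Ccnd1* was again last, at 1.55 ± 0.393 TPM. By mean TPM *Cdk6* was at rank 6 in wt/wt and 4 in fl/fl cells, but without replicate 1 it was at rank 4 in both.

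Compared between genotypes, none of the 10 genes passed the threshold of an adjusted p below 0.01 and a log2 fold change of at least 0.5 in edgeR, where 2.15% of all 15474 tested genes did. DESeq2 called 1 of them, *Ccnd1*, by these limits (8.10% of all genes) and limma-trend none. At an adjusted p below 0.05 in edgeR 1 of the 10 passed, *Ccnd1*, which was higher, against 7.83% of all genes (3.38% lower and 4.45% higher). At the same limit 1 passed in limma-trend (6.95% of all genes) and 5 in DESeq2 (*Ccnd1*, *Ccne1*, *Ccne2*, *Cdk2* and *Cdk4*, against 13.4% of all genes). Before adjustment, 6 of the 10 had p below 0.05, which 22.5% of all genes did, and of these 4 were lower and 2 higher, against 10.2% and 12.4% of all genes. The 4 lower ones were *Ccne1*, *Ccne2*, *Cdk2* and *Cdk4*, and the 2 higher ones *Ccnd1* and *Cdk6*. The median log2 fold change of the 10 was 0.02, beside 0.0144 for all genes tested. The CPM values of the genotypes did not overlap for 7 of the 10 (31.3% of all genes), lower in 4 and higher in 3, against 15.1% and 16.2% of all genes. Fitted without the replicate number as a block, 4 of the 10 were below an adjusted p of 0.05 in edgeR (*Ccnd1*, *Ccne2*, *Cdk2* and *Cdk4*), against 9.60% of all genes (4.47% lower and 5.14% higher), and none of the 10 passed the full threshold, which 2.50% of all genes did. With both libraries of replicate 1 left out, or both of replicate 2, none of the 10 was below 0.05 in edgeR (4.13% and 4.91% of all genes were), and without replicate 4 there were 3 (5.13% of all genes).

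**Figure D1:**
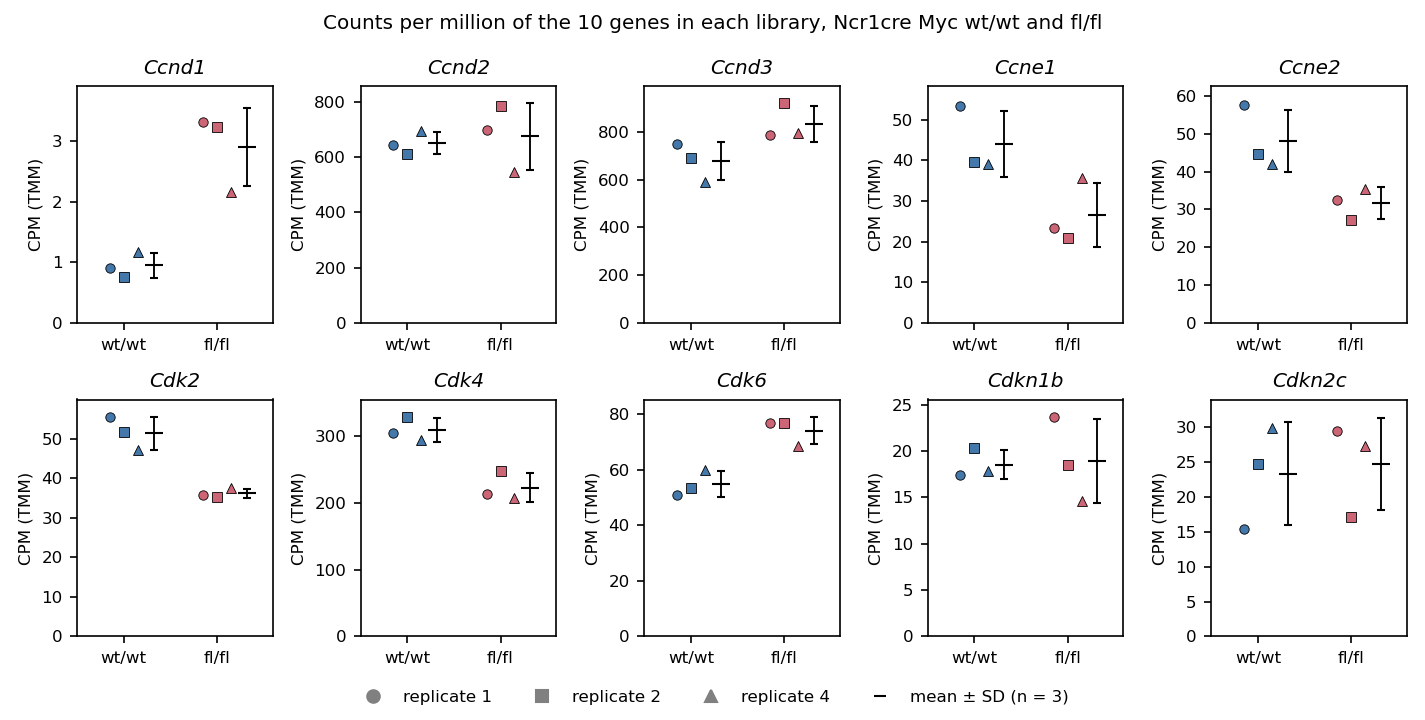
CPM (linear axis from 0, TMM-normalized) of the 10 genes in each library, with wt/wt in blue, fl/fl in red, 1 symbol shape per replicate number, and bars for the mean ± SD of 3 libraries. *Ccne1*, *Ccne2*, *Cdk2* and *Cdk4* lay lower in every fl/fl library, *Ccnd1*, *Ccnd3* and *Cdk6* higher, and *Ccnd2*, *Cdkn1b* and *Cdkn2c* overlapped.

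Among the D-type cyclins, *Ccnd1* (chromosome 7 of GRCm38, 144929931 to 144939925) was the least abundant of the 10. Wt/wt libraries 1, 2 and 4 had 7, 43 and 77 counts of it, and fl/fl libraries 1, 2 and 4 had 195, 177 and 129. In CPM these were 0.909, 0.762 and 1.18 against 3.32, 3.24 and 2.16. Each fl/fl library was above each wt/wt library, and fl/fl libraries 1 and 2 were the highest. The mean was 3.06-fold higher in fl/fl cells, a log2 fold change of 1.57 (SE 0.40, 95% interval 0.69 to 2.46, adjusted p = 0.0416, edgeR). Leaving out replicate 1 gave 1.47 (adjusted p = 0.111, edgeR), and leaving out replicate 2 gave 1.30 (adjusted p = 0.214, edgeR). Its 5-exon transcript Ccnd1-201 took between 92.9% and 100% of its counts in every library.

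Markers of other BM cells stood higher in the same libraries. The 10 basophil and mast cell markers summed to 99.4, 82.1 and 101.3 CPM in wt/wt libraries 1, 2 and 4 and to 518.5, 523.1 and 256.3 CPM in fl/fl libraries 1, 2 and 4, and 9 of the 10 passed the threshold. The most abundant of these were *Kit*, *Prss34* and *Mcpt8*, at means of 77.1, 2.83 and 1.21 CPM in wt/wt and 187.9, 127.9 and 48.0 CPM in fl/fl cells. Of the 8 granulocyte-monocyte progenitor markers 7 passed, with sums between 94.5 and 140.6 CPM in wt/wt and between 571.9 and 915.7 CPM in fl/fl, where library 4 was the highest. *Mpo*, *Elane* and *Cd34* led that list, at means of 88.6, 6.08 and 9.60 CPM in wt/wt and 543.0, 47.8 and 34.7 CPM in fl/fl cells. The sums were also higher without overlap for the 8 monocyte markers (1668 to 1873 against 2097 to 2386 CPM), the 8 erythroid markers (610.4 to 843.5 against 1255 to 1627 CPM), the 8 plasmacytoid dendritic cell markers (344.2 to 407.3 against 742.3 to 907.7 CPM) and the 8 megakaryocyte and platelet markers (8.83 to 15.9 against 23.9 to 72.9 CPM). Past the threshold in edgeR were 4, 1, 3 and 1 of them, in DESeq2 4, 5, 3 and 3, and in limma-trend 4, 1, 3 and 0, all higher. The gate asks for NK1.1 and CD27 and for no CD11b or CD3, and would remove cells of each of these types that lack NK1.1. The summed neutrophil markers overlapped (4.42 to 17.6 against 16.1 to 32.0 CPM), but all 7 tested were above 0 with a median log2 fold change of 1.66. Before adjustment 6 of them were higher at p below 0.05 in edgeR (12.4% of all genes). Past the threshold were 1 in edgeR (2.15% of all genes), 4 in DESeq2 (8.10% of all genes) and none in limma-trend. The summed T cell markers, of cells that the CD3 gate would remove, overlapped as well (395.2 to 782.1 against 491.6 to 628.8 CPM). None of the T cell markers passed in edgeR, DESeq2 or limma-trend. Before adjustment, p was below 0.05 for 4 of them, 1 lower and 3 higher, against 10.2% and 12.4% of all genes. *Fcgr1* had no count in any wt/wt library, and none of these markers was at 0 in all fl/fl libraries. The part of these cells in the values of *Ccnd1*, *Cdk6* or any other of the 10 genes was not tested.

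*Ccnd2* (chromosome 6, 127125162 to 127152193), the most abundant of the 10 by TPM summed over its transcripts, had 644.5, 612.9 and 693.8 CPM in wt/wt libraries 1, 2 and 4 and 696.4, 783.7 and 544.4 CPM in fl/fl libraries 1, 2 and 4. The highest and the lowest value both came from fl/fl libraries. Its log2 fold change was 0.04 with a 95% interval from −0.32 to 0.40 (adjusted p = 0.931, edgeR). *Ccnd3* (chromosome 17, 47505051 to 47599691) had 747.8, 691.1 and 590.0 CPM in wt/wt and 785.7, 918.9 and 793.8 CPM in fl/fl libraries 1, 2 and 4. The genotypes did not overlap, but wt/wt library 1 and fl/fl library 1 lay close together. The log2 fold change was 0.30 (95% interval −0.01 to 0.62, adjusted p = 0.236, edgeR). By TPM, *Ccnd2* made up 59.2 ± 5.64% of all D-type cyclin transcripts in wt/wt and 56.6 ± 3.35% in fl/fl cells (SD, n = 3 each), and *Ccnd3* 40.8 ± 5.65% and 43.3 ± 3.37%. By estimated counts *Ccnd2* made up 49.1 ± 4.28% and 44.5 ± 3.38%, and *Ccnd3* 50.9 ± 4.29% and 55.3 ± 3.41% (SD, n = 3 each). By mean, which of them was higher thus depended on the scale. The shares by TPM overlapped (exact permutation test, two-sided, p = 0.70 for each, adjusted p = 0.70 over 7 ratios). Without replicate 1 they did not overlap, with *Ccnd2* at 58.5% and 65.1% in wt/wt and 55.4% and 54.1% in fl/fl libraries 2 and 4, and 2 libraries against 2 cannot go below p = 0.333 in the exact permutation test. *Ccnd1* held 0.0249 ± 0.0110% and 0.0897 ± 0.0185% (SD, n = 3 each, exact permutation test, p = 0.10, adjusted p = 0.35), where 0.10 is the smallest p that 3 libraries against 3 allow. The summed level of the D-type cyclins was 1636 ± 340 TPM in wt/wt and 1729 ± 176 TPM in fl/fl cells (SD, n = 3 each), and the libraries overlapped through wt/wt library 1. Without replicate 1, chosen after seeing the data, wt/wt lay between 1426 and 1453 TPM and fl/fl between 1526 and 1828 TPM.

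Both E-type cyclins, which drive CDK2 at the G1/S transition, were lower in every fl/fl library. *Ccne1* (chromosome 7, 38097984 to 38107534) had 53.3, 39.6 and 39.1 CPM in wt/wt libraries 1, 2 and 4 and 23.5, 20.8 and 35.6 CPM in fl/fl libraries 1, 2 and 4. Fl/fl library 4 stood apart from the other two and came near the lowest wt/wt value. The fl/fl mean was 60.6% of the wt/wt mean, a log2 fold change of −0.74 (SE 0.21, 95% interval −1.21 to −0.28, adjusted p = 0.0599, edgeR). *Ccne2* (chromosome 4, 11191351 to 11204779) had 57.6, 44.7 and 42.0 CPM in wt/wt and 32.6, 27.1 and 35.5 CPM in fl/fl libraries 1, 2 and 4. Its fl/fl libraries all lay below the lowest wt/wt library, and library 4 was again the highest of them. The fl/fl mean was 66.0% of the wt/wt mean, a log2 fold change of −0.59 (SE 0.16, 95% interval −0.96 to −0.23, adjusted p = 0.0576, edgeR, and 0.0484 without the replicate block). Without replicate 4 the log2 fold changes were −1.07 for *Ccne1* and −0.79 for *Ccne2*, and both adjusted p-values were below 0.05 in edgeR (0.0124 and 0.0447). Without replicate 1 they were −0.53 and −0.48, with adjusted p-values of 0.247 and 0.217 in edgeR. The ratio of *Ccne1* to *Ccne2* within a library, by TPM, was 1.47 ± 0.161 in wt/wt and 1.44 ± 0.232 in fl/fl cells (SD, n = 3 each, exact permutation test, two-sided, p = 0.70, adjusted p = 0.70). Most counts of *Ccne1* were on the 12-exon transcript Ccne1-201, at 98.9% or more in every library, whereas those of *Ccne2* were divided between 3 transcripts of 12 exons each. Ccne2-202 took between 80.1% and 94.7% of them in wt/wt and between 64.3% and 91.7% in fl/fl libraries.

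**Figure D2:**
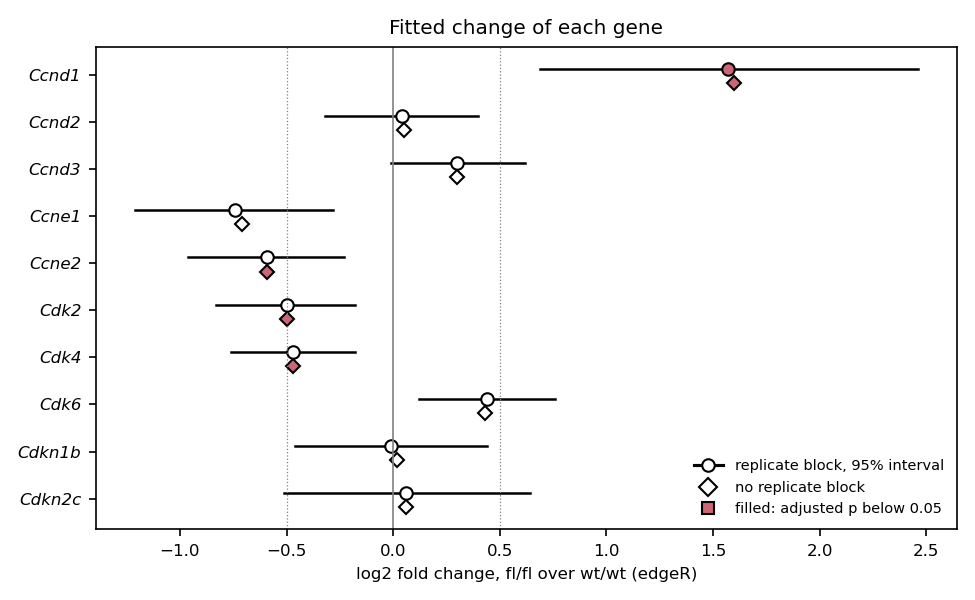
Fitted log2 fold change (fl/fl over wt/wt, edgeR) of each gene, as circles with 95% intervals from the fit with the replicate block and as diamonds from the fit without it, filled where the adjusted p was below 0.05. Dotted lines mark the fold change limit of 0.5. Only *Ccnd1* is filled in both fits, and *Ccne2*, *Cdk2* and *Cdk4* only in the fit without the block.

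Of the kinases, *Cdk2* (chromosome 10, 128697939 to 128705031), the partner of the E-type cyclins, had 55.3, 51.6 and 47.1 CPM in wt/wt libraries 1, 2 and 4 and 35.8, 35.3 and 37.4 CPM in fl/fl libraries 1, 2 and 4. The fl/fl libraries were tightly grouped, at 36.2 ± 1.11 CPM (SD, n = 3), below all wt/wt libraries. Its log2 fold change was −0.50 (SE 0.15, 95% interval −0.83 to −0.18, adjusted p = 0.0672, edgeR, and 0.0313 without the replicate block). *Cdk4* (chromosome 10, 127063534 to 127067920), a partner of the D-type cyclins, had 303.8, 327.9 and 293.5 CPM in wt/wt and 213.7, 248.0 and 206.4 CPM in fl/fl libraries 1, 2 and 4. Every fl/fl library was below every wt/wt library, and the fl/fl mean was 72.2% of the wt/wt mean. The log2 fold change was −0.47 (SE 0.13, 95% interval −0.76 to −0.18, adjusted p = 0.0554, edgeR, and 0.0344 without the replicate block). DESeq2 gave an adjusted p of 0.00678 for *Cdk4*, with a log2 fold change just under the limit of 0.5. *Cdk6* (chromosome 5, 3341485 to 3531008), the other partner of the D-type cyclins, had 50.9, 53.2 and 59.9 CPM in wt/wt and 76.9, 76.8 and 68.4 CPM in fl/fl libraries 1, 2 and 4. It was above all wt/wt libraries in each fl/fl library, opposite to *Cdk4*. The fl/fl mean was 1.35-fold the wt/wt mean, a log2 fold change of 0.44 (SE 0.14, 95% interval 0.12 to 0.76, adjusted p = 0.0993, edgeR, and 0.0523 without the replicate block). With offsets from the effective transcript lengths it was 0.89 (adjusted p = 0.0908, edgeR).

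The ratio of *Cdk4* to *Cdk6* compares both kinases within a library, without scaling between libraries. By TPM it was 35.3, 18.5 and 15.7 in wt/wt libraries 1, 2 and 4 and 7.03, 9.31 and 7.98 in fl/fl libraries 1, 2 and 4. All fl/fl ratios were below all wt/wt ratios, and wt/wt library 1 stood far above the other two. The difference was −1.43 on the log2 scale (p = 0.10 and adjusted p = 0.35 in the same exact permutation test). From estimated counts, the ratios were 5.97, 6.16 and 4.90 in wt/wt and 2.78, 3.23 and 3.02 in fl/fl libraries. On that scale wt/wt library 1 lay between the other two, and the difference was −0.91 on the log2 scale (exact permutation test, p = 0.10, adjusted p = 0.35). Without replicate 1 the difference by TPM was −0.98, with no overlap. The summed TPM of *Cdk4* and *Cdk6* was 592.4 ± 35.7 in wt/wt and 464.9 ± 48.8 in fl/fl cells (SD, n = 3 each), with fl/fl below wt/wt in every library.

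**Figure D3:**
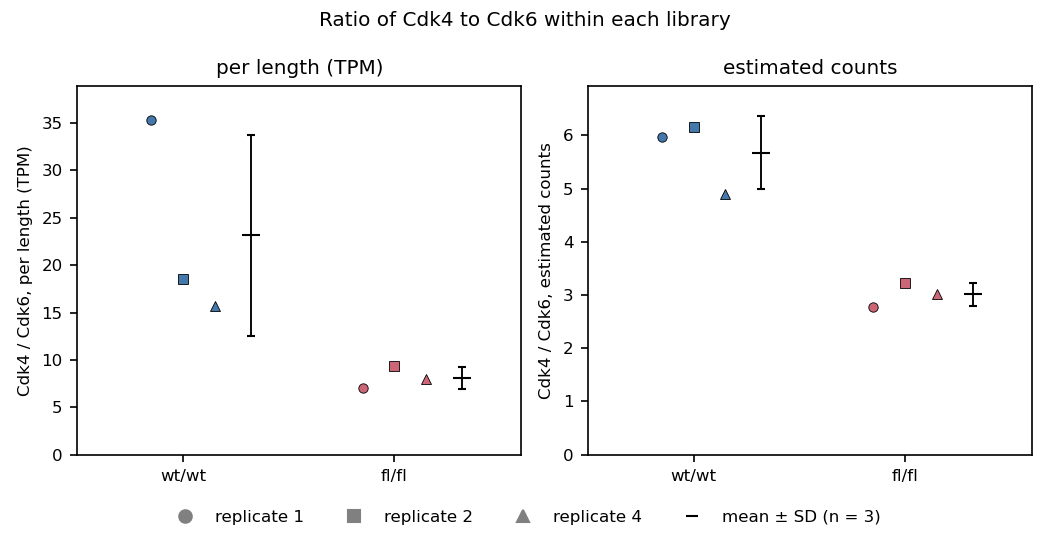
Ratio of *Cdk4* to *Cdk6* in each library on linear axes from 0, by TPM on the left and by estimated counts on the right, with the mean ± SD of 3 libraries. On both scales the fl/fl ratios (7.03 to 9.31 and 2.78 to 3.23) lie below the wt/wt ratios (15.7 to 35.3 and 4.90 to 6.16).

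Of the 24 transcripts of the 10 genes with a mean share of at least 5% of the counts of their gene over all 6 libraries, a filter chosen after seeing the data, 2 had shares that did not overlap between the genotypes (8.33%), both of them of *Cdk6*, against 11% of 33026 such transcripts of all tested genes. One of them, Cdk6-203, was under 5% in every wt/wt library and at 5.01% on average, so it passed this filter only through its fl/fl libraries. A share of this size is no result about the transcripts of the 10 genes, and the values are given because they bear on the level of *Cdk6* per length. The 8-exon Cdk6-202 (3343893 to 3531008) took 71.8%, 73.8% and 76.0% of them in wt/wt libraries 1, 2 and 4 and 66.3%, 66.2% and 68.8% in fl/fl libraries 1, 2 and 4. The 2-exon Cdk6-203, which ends at 3390693, well before the end of the gene, took 0.760%, 3.98% and 4.28% in wt/wt and 6.87%, 6.94% and 7.24% in fl/fl libraries. Cdk6-201, with 7 exons, overlapped, with 19.9 ± 5.10% and 21.7 ± 1.31% (SD, n = 3 each). By TPM, Cdk6-203 was at 1.08, 7.19 and 8.50 in wt/wt and at 19.0, 18.5 and 17.3 in fl/fl libraries, and Cdk6-202 at 3.76, 4.403 and 4.83 against 5.92, 5.66 and 5.32. The short transcript weighs more per length than per count, and the wt/wt library 1 level of *Cdk6* was 16.1 TPM against 32.4 and 33.7 TPM in libraries 2 and 4. These divisions come from the quantifier and were not tested.

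**Figure D4:**
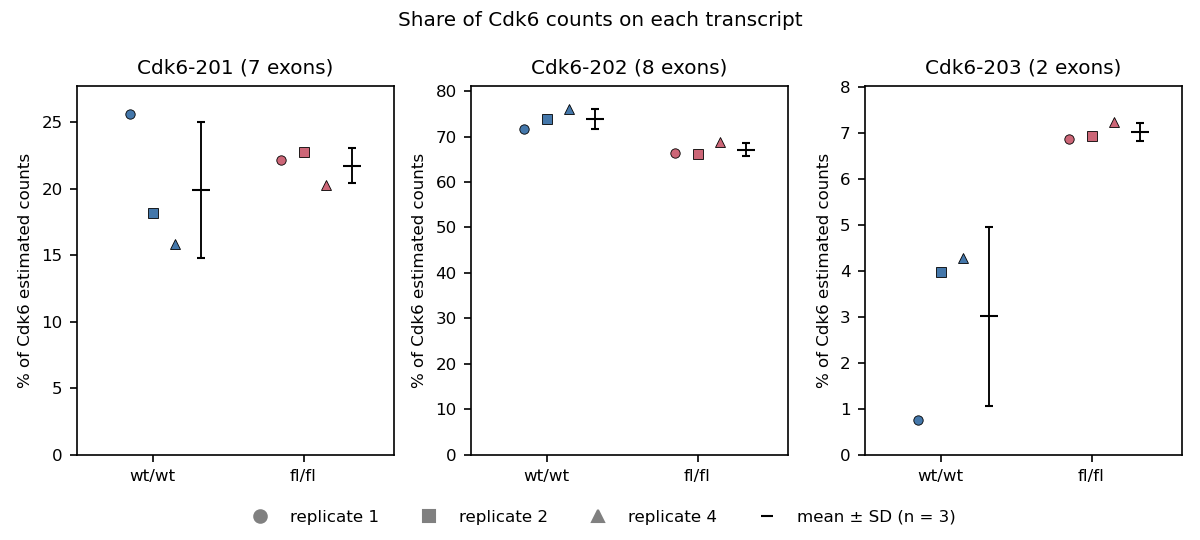
Share of the *Cdk6* estimated counts on its 3 main transcripts in each library (percent, linear axes from 0), with the mean ± SD of 3 libraries. The share of Cdk6-203 is at 4.28% or less in wt/wt and at 6.87% or more in fl/fl libraries, and that of Cdk6-202 is lower in every fl/fl library.

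Both CDK inhibitors of the set overlapped between genotypes. *Cdkn1b* (chromosome 6, 134920401 to 134925513) had 17.4, 20.4 and 17.9 CPM in wt/wt libraries 1, 2 and 4 and 23.7, 18.5 and 14.6 CPM in fl/fl libraries 1, 2 and 4. Its highest and lowest values were both in fl/fl libraries, and the log2 fold change was −0.01 (95% interval −0.46 to 0.44, adjusted p = 0.990, edgeR). *Cdkn2c* (chromosome 4, 109660876 to 109667189) had 15.5, 24.7 and 29.9 CPM in wt/wt and 29.5, 17.2 and 27.4 CPM in fl/fl libraries. Wt/wt library 1 and fl/fl library 2 were the low ones, and the log2 fold change was 0.06 (95% interval −0.51 to 0.64, adjusted p = 0.931, edgeR). For both genes the interval reaches close to or past 0.5 in either direction, so these values do not show that the levels were equal. Set against the kinase it inhibits, the ratio of *Cdkn1b* to *Cdk2* by TPM was 0.178, 0.281 and 0.252 in wt/wt and 0.439, 0.355 and 0.268 in fl/fl libraries 1, 2 and 4. Fl/fl library 4 lay within the wt/wt range (log2 difference 0.58, exact permutation test, two-sided, p = 0.20, adjusted p = 0.467). The ratio of *Cdkn2c* to the sum of *Cdk4* and *Cdk6* was 0.0372 ± 0.0145 in wt/wt and 0.0554 ± 0.0181 in fl/fl cells (SD, n = 3 each, exact permutation test, p = 0.30, adjusted p = 0.525).

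The rest of the G1/S pathway was read from lists of gene names, described by counts beside the medians of all genes (0.0144) and the share of all genes past the threshold (0.872% lower, 1.28% higher). Among the other CDK inhibitors, 5 of 6 were tested. *Cdkn3*, a phosphatase that acts on CDKs and is named with the inhibitors, passed and was lower in all fl/fl libraries, with 22.2, 22.9 and 27.1 CPM in wt/wt and 11.4, 8.76 and 12.9 CPM in fl/fl libraries 1, 2 and 4 (log2 fold change −1.14, SE 0.19, adjusted p = 0.00808, edgeR). It also passed in DESeq2 but not in limma-trend (adjusted p = 0.0107). *Cdkn1a*, which encodes p21Cip1, was named after its values were seen. It had 13.3, 12.8 and 9.91 CPM in wt/wt and 24.7, 21.0 and 38.2 CPM in fl/fl libraries, without overlap (log2 fold change 1.19, SE 0.25, adjusted p = 0.0214, edgeR), and of edgeR, DESeq2 and limma-trend it passed the threshold in DESeq2. *Cdkn2a* was not tested, with no count in any wt/wt library. The median log2 fold change of the 5 was 0.70.

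In the 13 pocket protein, E2F and DP genes none passed the threshold in edgeR, 4 had p below 0.05 before adjustment (3 lower, 1 higher, against 10.2% and 12.4% of all genes), and the median log2 fold change was −0.31. The smallest adjusted p-values were those of *Rbl2*, which encodes the pocket protein p130 of resting cells, with 347.4 ± 33.8 CPM in wt/wt and 489.3 ± 34.9 CPM in fl/fl cells (SD, n = 3 each), and of *Tfdp1*, an E2F partner, with 202.6 ± 31.9 and 140.5 ± 7.42 CPM. Their log2 fold changes were 0.50 and −0.52 (adjusted p = 0.0468 and 0.0473, edgeR). Neither was below 0.05 once any one replicate was left out (adjusted p, edgeR, 0.0969 to 0.239 and 0.0896 to 0.160). DESeq2 called 1 of the 13, lower, against 8.10% of all genes, and limma-trend none.

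The 19 E2F target genes of the G1/S transition all had a log2 fold change below 0, with a median of −0.58. None passed the threshold in edgeR or limma-trend and 10 did in DESeq2, against 8.10% of all genes. In edgeR 13 were lower at an unadjusted p below 0.05 (10.2% of all genes) and 10 at an adjusted p below 0.05 (3.38% of all genes). *Tyms*, for thymidylate synthase, had 112.4 ± 9.69 CPM in wt/wt and 67.5 ± 6.43 CPM in fl/fl cells (SD, n = 3 each, log2 fold change −0.74, adjusted p = 0.0131, edgeR) and *Tk1*, for thymidine kinase, 65.3 ± 2.55 and 40.7 ± 8.46 CPM (log2 fold change −0.70, adjusted p = 0.0284, edgeR). The list holds neither *Ccne1* nor *Ccne2*, whose log2 fold changes of −0.74 and −0.59 lie within its range of −0.86 to −0.11.

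Later in the cycle, *Ccnb2*, a mitotic cyclin, was the member past the threshold among 5 tested later cyclins and *Cdk1*, at 148.6 ± 19.3 CPM in wt/wt and 76.7 ± 14.7 CPM in fl/fl cells (SD, n = 3 each, log2 fold change −0.96, SE 0.15, adjusted p = 0.00720, edgeR). All 5 were lower at an adjusted p below 0.05 in edgeR (3.38% of all genes), with a median of −0.88. DESeq2 called all 5 (8.10% of all genes), and limma-trend none (adjusted p = 0.0106 for *Ccnb2*). Of 6 proliferation markers 2 passed, *Mki67* (log2 fold change −1.26, adjusted p = 0.00348, edgeR) and *Birc5* (−1.03, adjusted p = 0.00541, edgeR), and the median was −0.87. DESeq2 called 5 of these 6 (8.10% of all genes) and limma-trend 2. Of the 11 genes for ubiquitin ligases of cyclins and inhibitors, *Cks1b*, a cofactor of SKP2 in the breakdown of p27Kip1, passed at 146.2 ± 5.59 and 78.0 ± 11.8 CPM (SD, n = 3 each, log2 fold change −0.92, SE 0.14, adjusted p = 0.00688, edgeR), while the median of the list was 0.00. Of the 7 CDK activators and chaperones none passed in edgeR or limma-trend and 1 did in DESeq2, lower (8.10% of all genes). Before adjustment p was below 0.05 for 3 in edgeR, each lower (10.2% of all genes), and the median was −0.30. The smallest adjusted p-values there were those of *Cdc25b*, a phosphatase that activates CDKs (log2 fold change −0.77, adjusted p = 0.0167, edgeR), and *Wee1*, a kinase that inhibits them (−0.51, adjusted p = 0.103, edgeR). Of 10 upstream regulators *Myc* was the gene past the threshold in edgeR and limma-trend, and the median was 0.31. DESeq2, which called 8.10% of all genes, called *Myc* and also 2 genes that were higher. These were *Mycn*, a paralog of *Myc*, and *Myb*, a transcription factor of progenitor cells, which are named after their values were seen. *Mycn* had 1.67 ± 0.325 CPM in wt/wt and 4.69 ± 1.86 CPM in fl/fl cells (SD, n = 3 each, log2 fold change 1.46, adjusted p = 0.0241, edgeR). *Myb* had 44.3 ± 10.2 and 73.7 ± 4.00 CPM (log2 fold change 0.76, adjusted p = 0.0239, edgeR). Neither overlapped between the genotypes. Leaving out both libraries of replicate 1 left none of these list genes past the threshold in edgeR, and leaving out replicate 2 left *Myc*. *Cdkn3* was also lost without replicate 4. *Tyms*, *Tk1* and *Cdc25b* were above an adjusted p of 0.05 in edgeR without replicate 1 (0.0515, 0.110 and 0.0608) and without replicate 2 (0.0597, 0.119 and 0.0772).

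**Figure D5:**
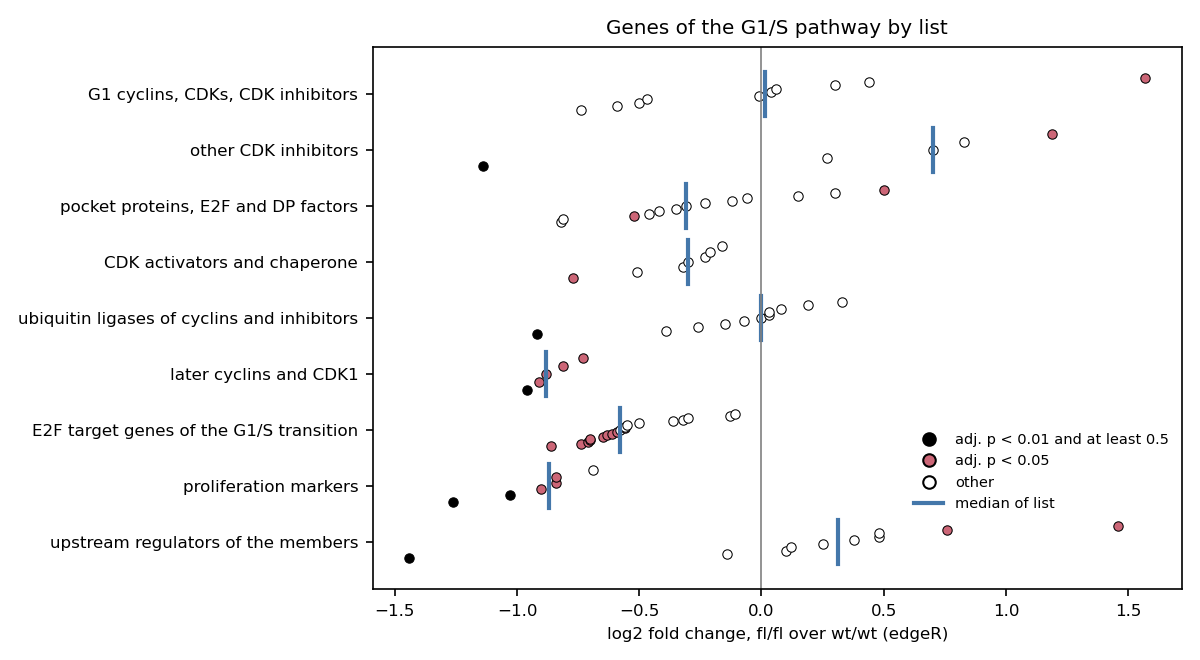
Log2 fold change (fl/fl over wt/wt, edgeR) of every tested gene in the set of 10 and in 8 lists of the G1/S pathway, black where past the threshold, red at an adjusted p below 0.05, white otherwise, with a blue bar at each list's median. The 10 G1 genes lie on both sides of 0 with a median of 0.02, whereas the 19 E2F targets, the 5 later cyclins and CDK1 genes and the 6 proliferation markers all lie below 0.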

How the data were processed

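RNA-seq of CD27SP NK cells gave 6 libraries, 3 per genotype, grouped by the labels. The authors deposited, per transcript and library, estimated counts (not normalized, not whole) and TPM values (scaled to length and depth). The labels name Salmon and GRCh38, while the columns are those kallisto writes and the identifiers are mouse, so the quantifier and build are uncertain. Assignment of reads to transcripts sets the shares, the TPM values and the effective lengths, and with offsets from these lengths fewer genes passed the threshold. Identifiers were matched to GENCODE M21 (GRCm38, 100239 of 100583), and the rest held 0.129% to 0.169% of counts per library and were left out. Counts were summed by symbol and rounded, TPM summed. Genes with enough counts (filterByExpr, 15474) were scaled by TMM and tested with the edgeR 4.0.16 quasi-likelihood test in R 4.3.3. Replicate numbers entered as a block, since the study describes a paired analysis, and p-values had Benjamini-Hochberg adjustment over all genes. The threshold was an adjusted p below 0.01 and a log2 fold change of at least 0.5. CPM are TMM-normalized. Ratios were compared by exact permutation tests in scipy 1.17.1.

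The 10 genes, the lists and the rules were chosen with earlier results of these data known. Named genes are the 10, *Myc* and *Mki67*, in each list the genes past the threshold (up to 3 per direction by adjusted p) or otherwise the 2 with the smallest adjusted p, in each marker list the 3 genes of highest CPM (printed in full for the 2 lists with the most genes past the threshold and in part for other lists), and transcripts with at least 5% of a gene's counts. *Tyms* and *Tk1* are those 2 of the E2F target list. DESeq2 1.42.0, limma 3.58.1, other filters, scalings and fits without libraries were alternatives. Scripts were tested on simulated data. Replicate libraries differed beyond counting noise. Library totals ran from 8101219 to 64962491 counts, so the shallowest library is the least precise. One marker list and part of the sort gate are not reported here.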

Additional observations from a re-analysis of the deposited data

How the results depend on the processing

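The fit without the replicate block called 184 genes lower and 203 higher, against 135 and 198 with it. Same-numbered libraries were hardly correlated in their deviations (r of −0.005, −0.0665 and 0.084 over 15474 genes), which does not show any pairing. Of the 10 G1 genes, DESeq2 called 1 by the main limits. With an adjusted p below 0.05 and no fold limit there were 1 in edgeR (7.83% of all genes), 4 without the replicate block (9.60%), 5 in DESeq2 (13.4%), 1 in limma-trend (6.95%), 1 with length offsets (4.13%), and 0 to 3 when a replicate was left out (4.13% to 5.13%). All but the first of these were chosen after seeing the data. Genes called lower and higher numbered 10 to 114 and 49 to 162 when a replicate was left out, 130 and 113 without the replicate block and without wt/wt library 1, 537 and 643 in DESeq2, 78 and 144 in limma-trend and likewise by the largest adjusted p of all tools, 378 and 524 without a filter on low counts, 25 and 49 by library size only, 6 and 24 with length offsets, and 523 and 689 at an adjusted p below 0.05. Genes of the pathway lists (6) numbered 11 without the replicate block, 0 to 11 when a replicate was left out, 2 without the block and wt/wt library 1, 28 in DESeq2, 23 without a filter, 2 by library size only, 1 with length offsets and 29 at an adjusted p below 0.05.

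Signs turned for log2 values near 0. *Ccnd2* came to −0.11 without replicate 2 and −0.04 with length offsets. Leaving out a replicate moved *Cdkn1b* between −0.22 and 0.12 and *Cdkn2c* between −0.33 and 0.38. *Cdkn1b* came to 0.02 without the replicate block, 0.07 and 0.12 without replicates 2 and 4, 0.00 in limma-trend, 0.01 without a filter, 0.02 with at least 10 counts in every library and 0.01 by library size only. *Cdkn2c* came to −0.33 without replicate 1 and −0.16 without the block and wt/wt library 1. Without replicate 4 the *Ccnd2* and *Ccnd3* shares came to 0.04 and −0.06, and without replicate 1 the *Ccne1* to *Ccne2* ratio to 0.09. The cause of these changes was not tested. *Ccnd1* was not tested where at least 10 counts in every library were required. *Ccnd1*, *Ccnd3*, *Ccne1*, *Ccne2*, *Cdk2*, *Cdk4* and *Cdk6* kept their direction under all alternatives that tested them. Log2 differences of the 7 ratios with a replicate left out ran from 1.5 to 2.27 for Ccnd1 share, from −0.17 to 0.04 for Ccnd2 share, from −0.06 to 0.25 for Ccnd3 share, from −1.66 to −0.98 for Cdk4 to Cdk6, from −0.20 to 0.09 for Ccne1 to Ccne2, from 0.21 to 0.82 for Cdkn1b to Cdk2 and from 0.12 to 0.94 for Cdkn2c to Cdk4 plus Cdk6.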

Other observations

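The transcript shares of the shallowest library, wt/wt 1, stood apart for *Ccnd2*, *Ccnd3*, *Cdk2*, *Cdk4*, *Cdk6* and *Cdkn1b*. Cdk6-203 took 0.760% of the *Cdk6* counts there and between 3.98% and 7.24% in the other 5 libraries, and Cdk6-201 took 25.6% against 15.8% to 22.8%. Cdk2-202 took 51.6% of the *Cdk2* counts there and between 57.8% and 70.7% in the others. Ccnd2-206 took 35.9% of the *Ccnd2* counts there and between 19.9% and 23.3% in the other 5 libraries, and Ccnd2-201 took 51.2% against 59.7% to 68.1%. Cdkn1b-201 took 33.9% of the *Cdkn1b* counts there and between 44.9% and 53.6% in the others. Ccnd3-205 took 75.4% of the *Ccnd3* counts there and between 89.1% and 93.3% in the other 5 libraries. The full-length Cdk4-201 took 7.81% of the *Cdk4* counts in wt/wt library 1 and between 23.5% and 29.2% in the others, and Cdk4-202 took none there and between 7.03% and 12.9% in the others. Cdk4-208, annotated as a target of nonsense-mediated decay, took 26.0% in that library and between 6.28% and 10.9% in the others. Shares of Cdk4-207, which retains an intron, lay between 9.31% and 10.6% in all 6 libraries.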
